A study of Mus musculus with 6 samples.

Results

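Windows of fetal heart transcripts that were read in only 1 of the 2 exposure groups are described here. The measurement was anti-m6A immunoprecipitation followed by sequencing (IP), given as a value for each short window along each gene. A window belonged to the nano-TiO2 set when it had a value above 0 in all 3 libraries from nano-TiO2 exposed litters and 0 in all 3 sham libraries, with a mean under 10 over the 6 libraries. The sham set was defined the other way round. The rule found 47283 windows read in nano-TiO2 only and 3127 read in sham only, 50410 in all, of 5193362 windows in the table and 2130341 with a read in any library. Because the windows were chosen by the same reads that are counted below, their counts and levels are given as a description, with no test.

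N6-methyladenosine (m6A) is a methyl group placed on adenosines of messenger and long noncoding RNA by a nuclear writer complex, removed by erasers and bound by reader proteins. It bears on splicing, stability and translation of the transcript, and in heart it is known for its part in growth and in the response to stress. An antibody against m6A pulls down fragments that carry the mark along with some background RNA, so a window with reads in an IP library is RNA recovered in the pulldown and not by itself a mapped m6A site. A window with only a few reads moves with the level of its transcript, with the mark and with the depth of the library.

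All libraries were made from fetal mouse hearts of the FVB/NJ strain, wild type, pooled over both sexes. The sham dams inhaled filtered air, and the exposed dams an aerosol of nanosized titanium dioxide (nano-TiO2) at a target of 12 mg/m3. Exposure ran for 360 minutes a day on 6 days within a span of 8 days, starting at gestational day 5, and hearts were taken at gestational day 15. Dams were 10 weeks old. Each group had 3 libraries. How the litters were shared out among the pools is not stated in the labels, so any p-value here measures only the spread between these 6 samples, which may be technical. In pooled whole hearts, fewer cells of a type and less RNA per cell cannot be told apart. Genes were given by Ensembl ID with no symbol, so the tissue label could not be set against marker genes.

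The libraries differed in how widely their reads were spread before any rule was applied. The sham libraries held 30862986, 31523675 and 22151447 reads in 1145132, 1097910 and 997523 windows. The nano-TiO2 libraries held 20205024, 24031476 and 28251706 reads in 1271555, 1484331 and 1414618 windows. Each nano-TiO2 library therefore had reads in more windows than any sham library, although the sham libraries included the 2 with the most reads. That lead in reads depended on few genes. With the 100 genes of most reads left out, sham 1, 2 and 3 held 17481571, 14625839 and 12434574 reads. Nano-TiO2 1, 2 and 3 then held 12320620, 17263228 and 18076782, and the highest total was that of nano-TiO2 3. A single read was worth 0.805 to 1.35 units of the deposited normalized value, depending on the library.

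The nano-TiO2 set was 15.1 times the size of the sham set. It made up 2.22% of all windows with a read, and the sham set made up 0.147%. Of the windows read in exactly 3 libraries, 20.2% were in the nano-TiO2 set and 1.337% in the sham set. There are 20 sets of 3 among 6 libraries, which pair into 10 ways of dividing the libraries 3 against 3, and each was counted by the same rule. Of these 20 sets, the 3 nano-TiO2 libraries gave the highest count and the 3 sham libraries the lowest. The 9 other ways of dividing the libraries gave 17503 to 28739 windows over both sides, against 50410 for the exposure groups, and the ratio of the sides was 1.18 to 7.75.

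The counts of the other sets were mostly higher with more nano-TiO2 libraries in them. Sets of 2 nano-TiO2 libraries and 1 sham library held 8961 to 25454 windows. Sets of 1 nano-TiO2 library and 2 sham libraries held 3285 to 10565, and the 2 ranges overlapped. The set nearest in size to the nano-TiO2 set was sham 1 with nano-TiO2 2 and 3, at 25454 windows. The sets nearest to the sham set were sham 2 and 3 with nano-TiO2 1, at 3285, and sham 1 and 3 with nano-TiO2 1, at 3390. With all reads kept, the sham set was therefore little smaller than these mixed sets, while the nano-TiO2 set was well above its nearest one.

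**Figure D1:**
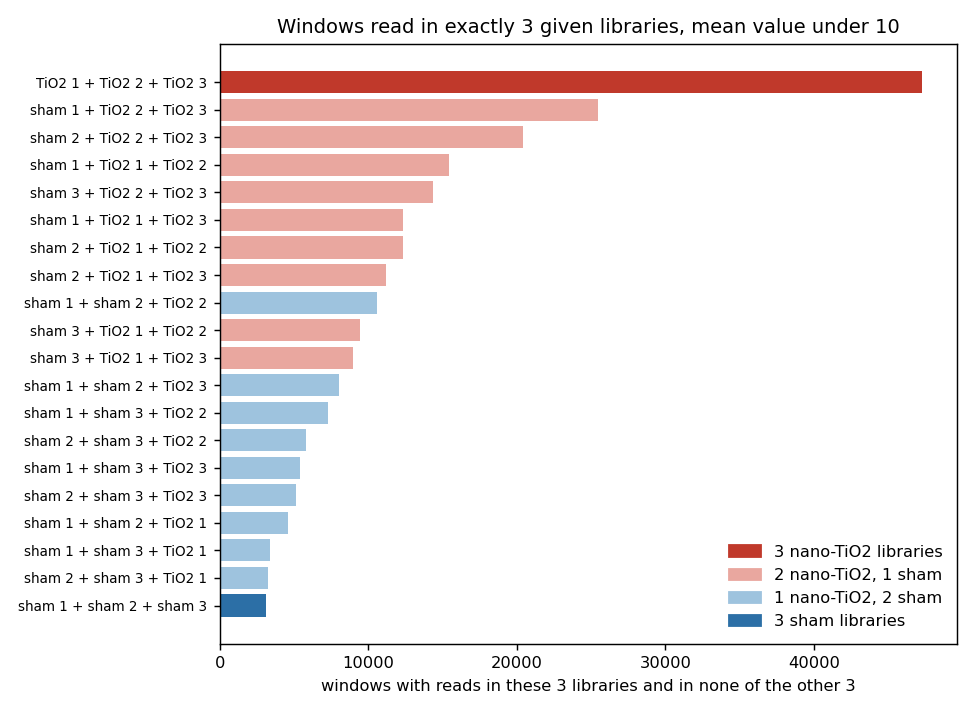
Number of windows (x axis) read in all 3 of the libraries named on the y axis and in none of the other 3, with a mean under 10, for all 20 sets of 3 libraries. The nano-TiO2 set stands at 47283 windows, the next at 25454, and the sham set at 3127 is the lowest bar.

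The nano-TiO2 set was also the larger one when every library had the same number of reads. With reads drawn at random so that every library held 20205024, the nano-TiO2 set held 54878 windows and the sham set 2368, a ratio of 23.2. At that depth, sets of 2 nano-TiO2 libraries and 1 sham library held 9951 to 18267 and sets of 1 nano-TiO2 library and 2 sham libraries 3912 to 7499. These ranges no longer overlapped, and the sham set was further below the lowest mixed set than with all reads kept. With the libraries drawn instead to equal normalized depth, where 1 read is worth the same in each, the sets held 33685 and 4864 windows, a ratio of 6.93. With the 100 genes of most reads removed before drawing to equal reads, they held 41585 and 3691, a ratio of 11.3. The size of the ratio thus moved with the scaling while its direction did not.

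Most windows of either set rested on very few reads. In the nano-TiO2 set the reads summed over the 3 libraries ran from 3 to 37 with a median of 5, and the normalized mean over 6 libraries from 0.458 to 5.60 with a median of 0.782. In the sham set the reads ran from 3 to 45 with a median of 4, and the mean from 0.558 to 8.31 with a median of 0.740. A total of 3 reads, 1 in each library, is the least the rule admits, and 7584 windows of the nano-TiO2 set (16.0%) and 1008 of the sham set (32.2%) were at that minimum. At least 10 reads were found in 5455 windows (11.5%) of the nano-TiO2 set and in 107 (3.42%) of the sham set. With at least 2 reads demanded in each library, 8578 and 171 windows were left, a ratio of 50.2.

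Library by library, nano-TiO2 1, 2 and 3 had 86809, 100284 and 100138 reads in the nano-TiO2 set, which is 1.84, 2.12 and 2.12 reads per window. These were 0.430%, 0.417% and 0.354% of each library's reads. The rule itself asks for a read in each of the 3, and over 50% of a window's reads came from nano-TiO2 1, 2 or 3 in 2478, 4752 and 4564 windows. Sham 1, 2 and 3 had 4917, 5668 and 4511 reads in the sham set, or 1.57, 1.81 and 1.44 per window. These were 0.0159%, 0.0180% and 0.0204% of each library's reads. A single read stood behind 45.8% to 54.3% of the values in the nano-TiO2 set and 64.2% to 69.7% in the sham set, depending on the library. At this depth a 0 in 3 libraries leaves room for a low level in all of them.

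The deepest windows of the sham set came mainly from 1 library. Of its 29 windows with at least 20 reads, which lay in 16 genes, 27 had over 50% of their reads in sham 2. Counted separately, 27 lay in genes where sham 2 held over 50% of the reads of the 6 libraries. Of its 107 windows with at least 10 reads, these counts were 57 and 53. Over the whole set of 3127 windows, 240 had over 50% of their reads in sham 2, against 217 for sham 1 and 128 for sham 3. In the nano-TiO2 set, 207 windows in 172 genes had at least 20 reads, and over 50% of these reads came from nano-TiO2 1, 2 or 3 in 12, 27 and 34 of them. What sets sham 2 apart in those genes was not tested.

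The limit of 10 on the mean removed very little. The highest means inside it in the nano-TiO2 set were 5.60, from 14, 11 and 11 reads in nano-TiO2 1, 2 and 3, and 5.47, from 9, 10 and 18 reads. The 1 window outside it had a mean of 13.4, from 37, 13 and 35 reads. In the sham set the highest means inside were 8.31, from 5, 34 and 6 reads in sham 1, 2 and 3, and 8.27, from 1, 42 and 2 reads. The 4 windows outside had means of 10.7, 12.0, 13.1 and 18.5. Sham 2 held most of the reads in the first 3 of these, and in the last sham 1, 2 and 3 had 2, 38 and 50 reads.

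The nano-TiO2 set fell in 9286 genes and the sham set in 2585, and windows per gene went with the size of the set. A gene with any window of the nano-TiO2 set held a mean of 5.09 of them and a median of 3. Only 3095 of these genes (33.3%) held 1 window, whereas 3168 genes held at least 5 and together had 75.8% of the set. At least 10 windows were found in 1429 genes, with 51.3% of the set, at least 20 in 353 genes, and at least 50 in 13. A gene with any window of the sham set held a mean of 1.21, and 2166 of the 2585 genes (83.8%) held 1. At least 5 windows of the sham set were found in 6 genes, and the highest number was 14. Mixed sets of libraries close to the sham set in size were like it, with a mean of 1.21 windows per gene in the set of 3390 windows and 1.26 in that of 3285. The largest mixed set, of 25454 windows, had a mean of 2.82. The 100 genes with the most windows held 8.48% of the nano-TiO2 set and 10.3% of the sham set, so neither set came from a small group of genes.

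**Figure D2:**
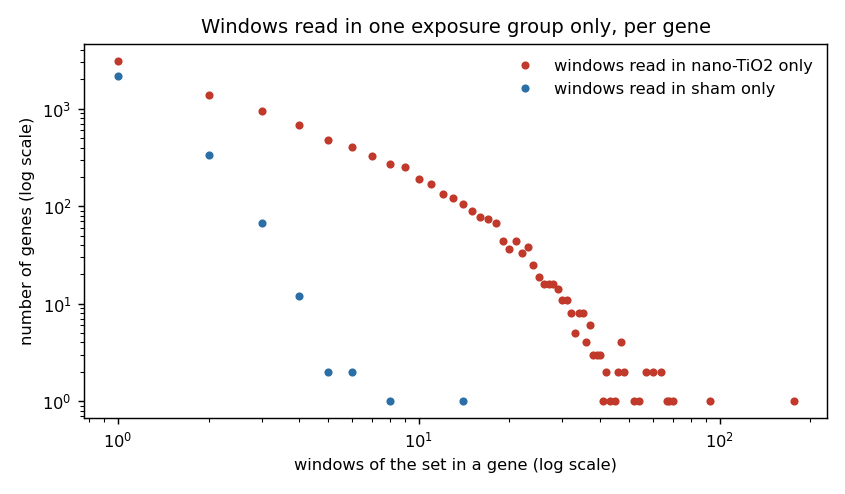
Number of genes (y axis, log scale) that held a given number of windows of a set (x axis, log scale), for windows read in nano-TiO2 only (red) and in sham only (blue). The blue points end at 14 windows, with 2166 genes at 1, and the red points go on to 176, with 3095 genes at 1.

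Few of these windows lay in genes that were themselves silent in the other group. Of the nano-TiO2 set 99.6%, and of the sham set 98.5%, lay in genes with a read in all 6 libraries. Genes with no read at all in the other group held 16 windows of the nano-TiO2 set and 9 of the sham set, each in a gene of its own. Taken as whole genes, 264 had reads in all 3 nano-TiO2 libraries and in no sham library, and 40 had the reverse. A total of 1587 genes held windows of both sets, which is 61.4% of the genes of the sham set and 17.1% of those of the nano-TiO2 set. In 1095 of them the nano-TiO2 windows were the more numerous, in 84 the sham windows, and in 408 the numbers were equal. In 101 places a window of one set was next to a window of the other.

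The 2 sets differed in the length of their genes, counted as windows per gene at 25 nucleotides a window. The 33538 genes with a read were ranked by their number of windows and cut into 5 classes of nearly equal size. In the class with the fewest windows, 8 to 32, the nano-TiO2 set had 6.91 windows and the sham set 3.72 for every 1000 windows with a read. In the class with the most, 212 to 4927, the rates were 30.3 and 1.16. The rate of the nano-TiO2 set was higher in each class than in the one before, and that of the sham set was lower. The ratio of the sets accordingly went from 1.86 through 3.05, 5.53 and 9.96 to 26.2. The class of the longest genes held 74.1% of the nano-TiO2 set and 42.8% of the sham set. Long genes have more windows in which a window of either set can lie, which is why rates per read window are given.

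Ranked by mean IP level instead, both sets were sparse at the bottom. In the lowest of 5 classes of genes the nano-TiO2 set had 0.437 and the sham set 0.175 windows per 1000 windows with a read. The nano-TiO2 set was densest in class 4, counted from the lowest, at 32.1, where gene totals were 66.9 to 432 normalized units, and stood at 16.7 in the highest class. The sham set was densest in the middle class, at 2.69, and stood at 0.871 in the highest. The rule itself favours middle levels, since it asks for reads in 3 libraries and none in the other 3.

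**Figure D3:**
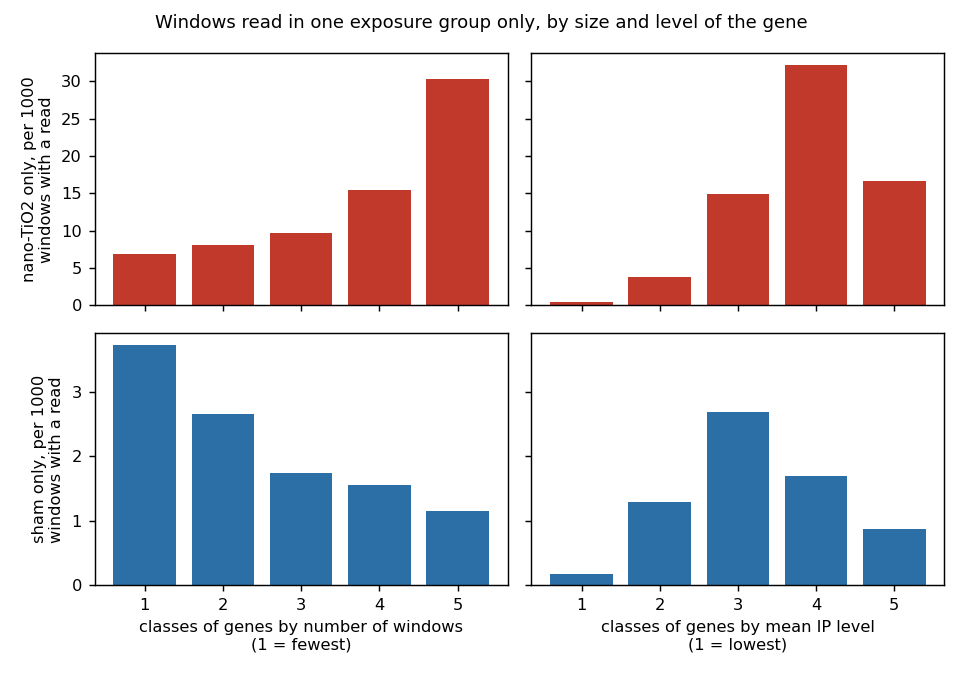
Windows of each set per 1000 windows with a read (y axis; nano-TiO2 set above in red, sham set below in blue, on different scales) in 5 classes of genes by number of windows (left) and by mean IP level (right). By number of windows, the bars of the nano-TiO2 set go from 6.91 up to 30.3 and those of the sham set from 3.72 down to 1.16.

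Along the gene neither set had a preferred place. With each gene cut into 10 parts of equal length, each part held 8.80% to 10.6% of the nano-TiO2 set and 9.24% to 10.8% of the sham set. For all windows with a read the parts held 9.05% to 10.5%, and the median relative position was 0.503 in both sets. The first window of a gene was a member in 82 genes for the nano-TiO2 set and in 19 for the sham set, and the last window in 85 and 14. m6A is known to be dense near the stop codon of many messenger RNAs, and the files mark neither stop codons nor the direction in which the starts run.

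Most windows of either set stood alone. In the nano-TiO2 set 6085 windows (12.9%) were next to another window of the set, against 47 (1.50%) in the sham set. The mixed sets of libraries had 1.70% to 6.68% with 2 nano-TiO2 libraries and 1.10% to 2.78% with 1, so the nano-TiO2 set, which is also the largest and has the most windows per gene, was above all of them. Its windows formed 44077 runs, of which 41198 were single windows, 2592 had 2 windows, 252 had 3, 31 had 4, 3 had 5 and 1 had 6. The sham set formed 3103 runs, of which 3080 were single windows, 22 had 2 and 1 had 3. The mixed set of sham 1 with nano-TiO2 2 and 3 also had a longest run of 6 windows. In the other mixed sets the longest run was 2 or 3. From one member to the next in the same gene the median distance was 10 windows in the nano-TiO2 set, over 37997 pairs, and 28 windows in the sham set, over 542 pairs. Of these pairs, 27.8% and 14.9% lay within 4 windows of each other.

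The other group had usually been read close by. A read of the other group lay in an adjoining window for 82.1% of the nano-TiO2 set and 89.7% of the sham set, and within 4 windows for 97.9% and 98.0%. That left 976 and 63 windows with no read of the other group within 4 windows. Around windows of the nano-TiO2 set, the window just before had a read in 32.8% of cases in a sham library and in 61.7% in a nano-TiO2 library. At 20 windows before, the shares were 31.6% and 55.0%. The share of windows with a read was thus nearly level in sham on the way to the member, while the number of reads was not. Mean sham reads per window were 1.83 at 20 windows before and 0.618 in the window just before, and mean nano-TiO2 reads were 2.72 and 1.54. Around windows of the sham set, the window just before had a read in 40.0% of cases in a sham library and 45.5% in a nano-TiO2 library. At 20 windows before, these shares were 34.3% and 41.7%. Even there the nano-TiO2 libraries, on average, were read in more windows than the sham libraries. In the window just before, however, nano-TiO2 1 (38.2%) was below sham 1 (43.6%) and sham 2 (43.0%). Mean reads per window, not scaled for library depth, went the other way. They were 1.63 in sham and 1.48 in nano-TiO2 just before the member, and 3.00 and 2.70 at 20 windows before. The libraries differed in depth, so this order between the groups holds for unscaled reads only.

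**Figure D4:**
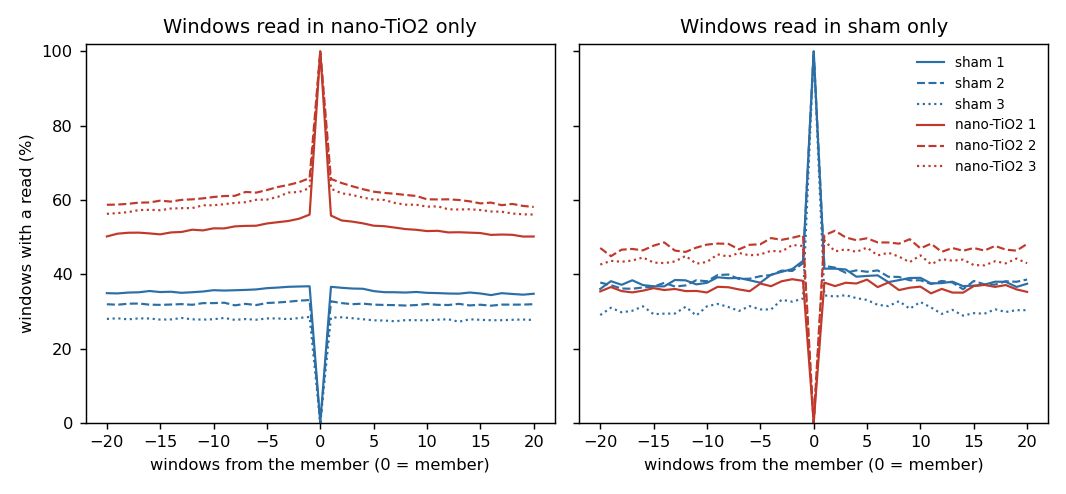
Share of windows with a read (y axis, %) at each distance in windows (x axis, up to 20 on either side) from windows of the nano-TiO2 set (left) and of the sham set (right), a line for each of the 6 libraries. At the member itself the share is 0 or 100 by the rule. On the left all 3 nano-TiO2 lines (red) run above all 3 sham lines (blue) at every distance shown other than 0, and on the right the red and blue lines are interleaved.

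The longest run of the nano-TiO2 set, 6 windows as in the largest mixed set, had starts 3572 to 3697 in a gene of 291 windows. It held 12, 22 and 21 reads in nano-TiO2 1, 2 and 3 and none in sham, in a gene whose reads in all numbered 283, 266 and 146 for sham 1, 2 and 3, and 257, 669 and 429 for nano-TiO2 1, 2 and 3. The gene itself was thus read in all 6 libraries, with nano-TiO2 1 between the sham values. A run of 4 windows with starts 4735 to 4810, in the gene ENSMUSG00000051747, had 26, 22 and 20 reads. The 1 run of 3 windows in the sham set lay in ENSMUSG00000066366, with starts 908 to 958, and had 7, 103 and 5 reads in sham 1, 2 and 3.

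The gene with the most windows of the nano-TiO2 set was ENSMUSG00000051747, with 176 of its 4693 windows. Windows with a read numbered 3145, 2971 and 3013 for sham 1, 2 and 3, and 4028, 4015 and 4024 for nano-TiO2 1, 2 and 3. Its summed normalized value came to 15567, 17514 and 20699.7 for the sham libraries, against 53441, 37012 and 48506 for the exposed ones. All 3 nano-TiO2 libraries were above all 3 sham libraries in both measures. The rule itself gave each nano-TiO2 library 176 windows that no sham library had, so part of this was fixed by the choice of the gene. The share of all genes without overlap is not given, so the gap is not shown to be particular to this gene. The log2 change was 1.36 ± 0.18 (SE), and 1.35 with the windows of both sets left out of the sum. Under the other scalings and tools it was 1.25 to 1.86. For this and the other genes named by their windows no p is given, since the windows that picked them come from the same libraries. This gene also held 2 windows of the sham set.

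ENSMUSG00000022708 followed with 93 of its 1229 windows. It was a gene of few reads: 300, 252 and 208 for sham 1, 2 and 3 against 1323, 1015 and 1223 for nano-TiO2 1, 2 and 3, in 221, 194 and 166 against 599, 523 and 555 windows. The groups did not overlap, but the rule itself gave each nano-TiO2 library 93 windows that no sham library had. Part of this gap was thus fixed by the choice of the gene, and the share of all genes without overlap is not given. Its log2 change was 1.95 ± 0.21 (SE), and 1.71 with the windows of both sets left out. Under the other scalings and tools the change was 1.78 to 2.45. In 4 parts of equal length from its lowest to its highest starts, the gene held 27, 20, 21 and 25 of its windows of the nano-TiO2 set, so they were spread along it. The next 10 genes held 54 to 70 windows of the set, 1.61% to 8.35% of their windows.

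Among genes of the sham set ENSMUSG00000101609 came first with 14 of its 3723 windows, and it held 60 windows of the nano-TiO2 set as well. Its reads came to 881, 1114 and 676 for sham 1, 2 and 3 against 1210, 2053 and 1469 for nano-TiO2 1, 2 and 3. Its summed normalized value was 792, 1220.2 and 914 for sham 1, 2 and 3 against 1350.2, 1699 and 1183 for the exposed libraries, so the groups overlapped, with sham 2 above nano-TiO2 3. Its log2 change was 0.54 ± 0.20 (SE), and 0.40 to 1.04 under the other scalings and tools. In the same 4 parts, the sham windows numbered 2, 11, 1 and 0 and the nano-TiO2 windows 3, 9, 12 and 36. The sham windows were thus most numerous in the second part and the nano-TiO2 windows in the last. The second part held both kinds in similar number. The windows with a read in each part are not given, so where either kind could fall is not known.

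ENSMUSG00000066366 had 8 of its 73 windows in the sham set, at 34.6 reads a window, the deepest of the 12 genes with the most windows of the sham set. Its reads numbered 51, 1692 and 89 in sham 1, 2 and 3 and 10, 28 and 58 in nano-TiO2 1, 2 and 3. Sham 2 stood far above the other 5 libraries, and sham 1 was below nano-TiO2 3. Of the reads in its 8 windows, sham 2 held 246 and sham 1 and 3 held 16 and 15. The log2 change of the gene was -3.18 ± 1.15 (SE), an SE far above those of the other named genes. Under the other scalings and tools the change was -4.73 to -2.70. The next 10 genes held 4 to 6 windows of the sham set.

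Summed over all windows of a gene, the IP level was compared between the groups by limma in 18566 genes. It was higher in nano-TiO2 in 4450 genes (24.0%) and lower in 2226 (12.0%), with a median log2 change of 0.13. The scaling moved this balance: 66.7% of the called genes were higher, against 52.2% by DESeq2, 52.3% after quantile normalization and 97.9% with totals made equal. The median over all genes tested was -0.01 by DESeq2, -0.05 after quantile normalization and 0.61 with equal totals, so the medians below are to be read against the 0.13 of this fit. Genes that hold windows of either set were picked from the same reads, so their share is given beside these figures and nothing is read from it.

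Of 8865 tested genes with windows of the nano-TiO2 set, 3824 (43.1%) were higher in nano-TiO2 and 293 (3.31%) lower, with a median log2 change of 0.60. The median was 0.15 in the 2712 genes with 1 window, 0.46 with 2 to 4, 0.87 with 5 to 9, 1.21 with 10 to 19 and 1.49 in the 353 genes with 20 or more. In that last class 347 genes were higher and 1 was lower. With the windows of both sets left out of the sums, the medians were 0.12, 0.41, 0.79, 1.10 and 1.37. Genes in these classes were picked by reads of the same libraries, so both series of medians are descriptions. By DESeq2, after quantile normalization and with equal totals, the median over the 8865 genes was 0.47, 0.35 and 1.09. In genes with 1 window it was 0.01, -0.05 and 0.64, and with 20 or more 1.37, 1.26 and 1.99. By windows in place of genes, 33936 windows of the nano-TiO2 set (71.8%) lay in genes called higher, 559 in genes called lower, 12327 in genes not called and 461 in genes not tested. The share of all windows with a read that lay in called genes is not given. The shares of genes called are in another unit and are no background for these windows, so nothing is read from the 71.8%.

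Of 2440 tested genes with windows of the sham set, 501 (20.5%) were higher in nano-TiO2 and 198 (8.11%) lower, with a median log2 change of 0.07. Among them, 1576 also held windows of the nano-TiO2 set. These shared genes had 479 of the 501 higher calls and 43 of the 198 lower calls, with a median of 0.34. Most genes called higher were thus shared with the nano-TiO2 set, and most called lower were not. In the 412 with at least 2 windows of the sham set, 57 were higher and 26 lower, with a median of -0.09. Of the windows of the sham set, 568 (18.2%) lay in genes called higher in nano-TiO2, 232 (7.42%) in genes called lower, 2173 in genes not called and 154 in genes not tested. That order depended on the scaling. After quantile normalization 361 windows of the sham set lay in genes called higher and 431 in genes called lower, DESeq2 gave 491 and 467, and equal totals 1171 and 56. The median of the 2440 genes was -0.18, -0.06 and 0.56 in the same order. Here too, the share of all windows with a read that lay in called genes is not given beside the shares of windows.

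**Figure D5:**
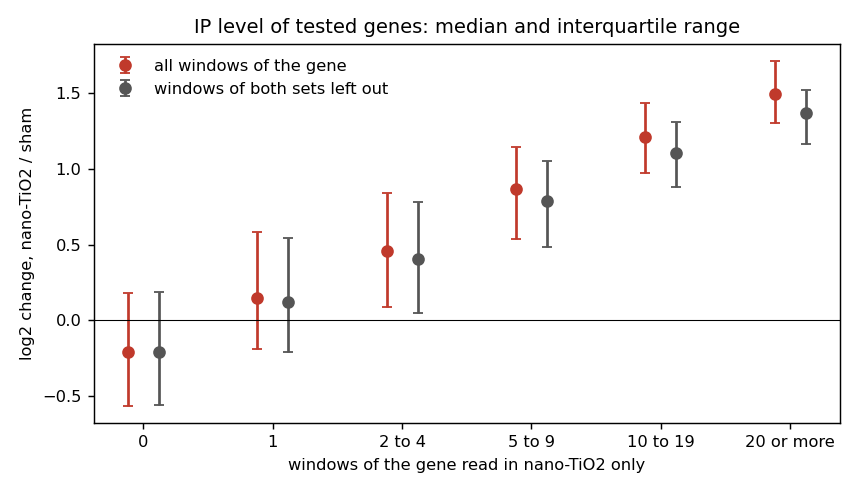
Change in gene IP level, nano-TiO2 over sham (y axis, log2; points are medians and bars the interquartile range over tested genes), by the number of windows of the nano-TiO2 set in the gene (x axis). Red uses all windows of the gene and grey leaves out the windows of both sets. The red median goes from -0.21 in genes with none to 1.49 in genes with 20 or more, and the grey one to 1.37. The genes were classed by reads of the same libraries, so the plot is a description.

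The authors also deposited a table of adjusted values in whole numbers. There, 45591 windows (96.4%) of the nano-TiO2 set and 3074 (98.3%) of the sham set were again above 0 in all 3 libraries of their group, and 0 of either set were above 0 in the other group. The median adjusted score of the windows was 1 in every library of their group other than sham 3, where it was 2. No window at 0 in the normalized table was above 0 in the adjusted one, so this table gives no separate reading of the zeros.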

How the data were processed

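The IP libraries, 3 sham and 3 nano-TiO2, were grouped by their titles. The submitters' processing notes name the build GRCm39, DESeq2 1.34.0, Salmon 1.5.2 and HISAT2 2.2.1 without their roles. The making of the windows, the counting, its strand setting and the adjustment are not given in the sources used here. The authors deposited a normalized signal per window and an adjusted whole-number score. Another deposited table was identical to the first and was not used. In 100% of the normalized values whole reads were recovered (1 step per library, tolerance 0.0001). The table is therefore not raw counts, and limma was the main test. On the recovered reads, edgeR called 6932 genes and DESeq2 7316, against 6676 by limma.

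Window values were summed per gene. For genes with a mean of at least 10, log2(value + 1) was tested two-sided by limma 3.58.1 with a trend (R 4.3.3), and p-values were adjusted by Benjamini-Hochberg, with a threshold of 0.05. Fold changes are on that scale, which understates low genes. Alternatives used edgeR 4.0.16 and DESeq2 1.42.0. Windows were counted in Python 3.11.15 with NumPy 2.4.6 and pandas 2.3.3, and figures drawn with matplotlib 3.10.9. The scripts were tested on simulated data.

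The members, lists and rules were chosen with earlier results of these data known. Of 48505 Ensembl IDs, 0 matched the RefSeq table used here, so the marker and gene lists could not be applied and no coordinates or sequences are given. The rule for named genes took, for each set, the 12 genes with the most windows, the 5 longest runs, the 5 windows with the highest means and the 2 windows on either side of the mean limit (every window outside it in the sham set). The first 2 IDs of each set are printed and the other genes described. Columns of other samples numbered 0. PCR copies are not independent molecules, so read counts carry more than counting error.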

Additional observations from a re-analysis of the deposited data

How the results depend on the processing

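The nano-TiO2 set was the larger one under all settings tried, with a ratio of 5.45 to 50.2, the lowest without sham 3. A demand for at least 2 reads in each library left 8578 and 171 windows in the nano-TiO2 and sham sets. Joining windows in blocks of 4 gave 15862 and 826 blocks. Leaving out 1 library, which relaxes the rule to 5 libraries, gave 71528 to 106257 windows (without sham 3 and without nano-TiO2 1) and 5882 to 13131 (without nano-TiO2 1 and without sham 3). Each of the 6 libraries left out moved both counts by over 1.5 times. Drawing to equal normalized depth, an alternative chosen after seeing the data, gave 4864 sham windows and 33685 nano-TiO2 windows. The removal of the 100 genes of most reads was also chosen then. The other settings stayed within 1.5 times the main counts.

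Genes called in IP level numbered 5896 to 8174 over other scalings, filters and tools, and 4763 to 6034 with a library left out. With the replicate number as a block, 6415 genes were called. Same-numbered libraries deviated together with r of -0.37, 0.18 and 0.02, and not every library correlated best with its own number. Across numbers, r was 0.52 for sham 3 with nano-TiO2 1 and 0.41 for sham 1 with nano-TiO2 2. It was -0.56 for sham 3 with nano-TiO2 2. With 3 libraries in a group, these values cannot decide whether the samples are paired. Depth limits these sets: with a median of 4 or 5 reads over 3 libraries, a 0 does not show that a window was absent from the other group.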
